A study of Mus musculus with 12 samples.

Results

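The dystrophin and sarcoglycan complex was followed through heart formation by 7 genes, Dmd, Utrn, Dag1, Sgca, Sgcb, Sgcd and Sgcz, taken by name from the 48709 gene intervals of a table of read counts, with 1 interval per name. All 7 passed the filter on low counts, which left 28846 genes for testing. The complex links the actin cytoskeleton under the muscle cell membrane to the extracellular matrix. Dystrophin (Dmd) binds actin on the inside, dystroglycan (Dag1) spans the membrane and binds laminin on the outside, and the sarcoglycans form a tetramer beside dystroglycan. Utrophin (Utrn) is a homologue of dystrophin that is found more widely across tissues. In people, loss of dystrophin or of a sarcoglycan causes muscular dystrophy, often with cardiomyopathy.

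Total RNA was sequenced from cardiogenic regions, the tissue that forms the heart, dissected from mouse embryos on embryonic day 8 (E8), on E8.5, on E9.5 and on E14, with 3 libraries per stage and 12 in all. The labels give no strain, genotype or treatment, and the title names a non-coding transcript, yylncT, and the DNA methyltransferase DNMT3B. Levels are given in CPM, the usual depth-scaled count, here with TMM factors, and differences as log2 fold changes of the later over the earlier stage with the standard error (SE). A gene is called where the Benjamini-Hochberg adjusted p of edgeR's quasi-likelihood test over all tested genes was under 0.05, and only called genes are said to rise or fall.

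Total counts ran from 56574386 to 122785175 per library. All 8 cardiomyocyte markers had at least 1 CPM at every stage, and their summed level was 16869 to 17077 CPM (E8), 12939 to 22543 CPM (E8.5), 12301 to 13800 CPM (E9.5) and 18845 to 21896 CPM (E14). Summed fibroblast and epicardium markers (10 genes) were 127 to 134, 153 to 179, 289.8 to 529 and 2319.8 to 2387 CPM over the same stages. In whole tissue, fewer cells of a type and less RNA per cell cannot be told apart. The skeletal muscle determination factors Myod1, Myf5 and Myf6 had at most 0.105 CPM as a stage mean, whereas the 10 markers of their list summed to 687 to 785 CPM at E14, mostly from the creatine kinase Ckm (520 CPM). Of the 7 tested, 3 rose and 2 fell at E14 over E9.5: Ckm (8.64 ± 0.12, edgeR adjusted p = 1.94e-12), the differentiation factor Myog (0.916 CPM at E14, 0.048 CPM at E9.5, 4.21 ± 0.65, edgeR adjusted p = 0.000204) and the embryonic myosin Myh3 (3.31 and 0.086 CPM, 5.23 ± 0.47, edgeR adjusted p = 2.82e-06) were higher. Acta1 (206 CPM at E14, 585 CPM at E9.5) and Tnnt3 (2.92 and 9.31 CPM), of the same list, were lower in all E14 libraries. The part of skeletal muscle cells in the E14 values was not tested. E8.5 replicate 3 stood apart: its 8 visceral endoderm and liver markers summed to 1657 CPM, against 150.3 and 55.3 CPM in E8.5 replicates 1 and 2 and at most 19 CPM at E8. Calls of members that changed without this library are given with and without it.

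The members differ widely in length. On the GRCm38 build, Dmd lies on the plus strand at chrX:82948870-85206141, an interval of 2257272 bp of which 1.05% is annotated exon. Sgcz (chr8:37522298-38661508, minus strand, 1139211 bp) and Sgcd (chr11:46896253-47988969, minus strand, 1092717 bp) have 0.266% and 0.756% of their intervals in exons. Utrn (chr10:12382188-12861735, minus strand) spans 479548 bp and Dag1 (chr9:108204634-108263958, minus strand) 59325 bp. The shortest are Sgcb (chr5:73632749-73647790, minus strand, 15042 bp, 26.9% exonic) and Sgca (chr11:94962791-94976327, minus strand, 13537 bp, 12.8% exonic). Intervals overlapping a member held 0% (Dag1) to 5.79% (Sgca, overlapped by Hils1 on the other strand) of the member's own counts, so little of any member's count could be shared.

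RefSeq promoters on GRCm38.p6 were matched for 6 of the 7 members. The 250 bases before the start are shown for the 4 members that were higher at E14 than at E8. Capitals mark the motifs found.
Dmd, chrX:82948620-82948869, plus strand: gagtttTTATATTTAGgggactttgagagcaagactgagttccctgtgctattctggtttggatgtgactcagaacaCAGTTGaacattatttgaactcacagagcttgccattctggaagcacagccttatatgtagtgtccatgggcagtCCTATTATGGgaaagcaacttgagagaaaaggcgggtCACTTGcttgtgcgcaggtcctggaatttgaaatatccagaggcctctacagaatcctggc
Sgcd, chr11:47379326-47379575, minus strand: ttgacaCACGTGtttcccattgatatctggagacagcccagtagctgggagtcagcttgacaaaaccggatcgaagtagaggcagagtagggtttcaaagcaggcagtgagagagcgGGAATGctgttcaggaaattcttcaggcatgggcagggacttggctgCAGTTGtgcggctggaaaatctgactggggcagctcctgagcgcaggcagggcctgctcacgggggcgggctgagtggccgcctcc
Sgca, chr11:94976328-94976577, minus strand: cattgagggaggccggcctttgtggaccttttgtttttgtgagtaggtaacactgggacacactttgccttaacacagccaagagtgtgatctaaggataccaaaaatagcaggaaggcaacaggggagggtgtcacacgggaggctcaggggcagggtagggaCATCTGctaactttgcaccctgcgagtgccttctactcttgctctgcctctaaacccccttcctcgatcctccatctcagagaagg
Sgcb, chr5:73647738-73647987, minus strand: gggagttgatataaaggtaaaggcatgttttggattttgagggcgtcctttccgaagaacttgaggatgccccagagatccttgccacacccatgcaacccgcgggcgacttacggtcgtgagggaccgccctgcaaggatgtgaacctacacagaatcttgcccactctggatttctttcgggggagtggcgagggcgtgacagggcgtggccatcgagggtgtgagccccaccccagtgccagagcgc
The motifs searched on both strands were the E-box (letters CANNTG), the MCAT element (letters CATTCC), the GATA site (letters AGATAA), the CArG box and the MEF2 site, which are bound by basic helix-loop-helix, TEAD, GATA, SRF and MEF2 factors. The Dmd promoter held 1 CArG box (CCTATTATGG, -98 to -89 from the start), 1 MEF2 site (TTATATTTAG, -244 to -235) and 2 E-boxes. Over 32841 RefSeq promoters of the same length, 1.47% held a CArG box, 2.92% a MEF2 site, 66.2% an E-box, 12.6% an MCAT element and 9.99% a GATA site. The Sgcd promoter held 2 E-boxes and 1 MCAT (on the reverse strand, GGAATG, -133 to -128), the Sgca promoter 1 E-box (CATCTG, -86 to -81), and these letters were not in the Sgcb window. No match overlapped one of another motif. Of the members not shown, the Utrn window held 7 E-boxes and each Dag1 window 1. The RefSeq starts of Sgcd and Sgcb lie inside the counted intervals, and RefSeq lists a further Dmd start downstream at base 85048295, before which no motif was found.

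By E14 the complex had changed unevenly: Dmd, Sgcd, Sgcb and Sgca were higher than at E8, Dag1 was lower, and Utrn and Sgcz were not called. Between E14 and E9.5, 5 of the 7 members rose (Dmd, Sgcd, Sgca, Sgcb and Sgcz) and Utrn and Dag1 were not called, beside 25.4% of all tested genes called higher, 24.6% lower and 50% in either direction. Between E14 and E8, 4 rose and 1 fell, beside 31.5% called higher, 29.2% lower and 60.7% in either direction. Between E9.5 and E8.5, 1 rose (Sgcd) and 3 fell (Sgcz, Utrn and Dag1), beside 18.4% called higher, 18.5% lower and 37% in either direction. Between E8.5 and E8, Sgcz alone was called, beside 1.18% of genes in either direction (257 higher, 0.891%, and 84 lower, 0.291%). DESeq2 called Dmd, Utrn and Sgcd as well, in a fit that called 4301 of 47041 genes.

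The median log2 fold change of the 7 members was 0.42 for E8.5 over E8, -0.34 for E9.5 over E8.5, 1.0 for E14 over E9.5 and 0.93 for E14 over E8. The medians over all tested genes were 0.02, -0.03, 0.01 and 0.04. Marker lists moved beside the members: at E14 over E9.5, 5 of 8 cardiomyocyte markers rose and 1 fell, 7 of 10 fibroblast and epicardium markers rose, and 6 of 7 endothelium markers rose. Of 7 smooth muscle and pericyte markers 2 rose and 3 fell, with a sum of 897 to 961 CPM at E14 and 2122 to 2404 CPM at E9.5, 3 of 7 erythroid markers rose and 3 fell, and 2 of 6 neural markers rose and 2 fell. The part of these cells in the members' values was not tested. The comparisons share stages and are not independent of each other. No label tells whether the libraries of a stage have separate litters or embryos behind them. The p-values therefore reflect the spread among these samples alone, and that spread may be technical.

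**Figure D1:**
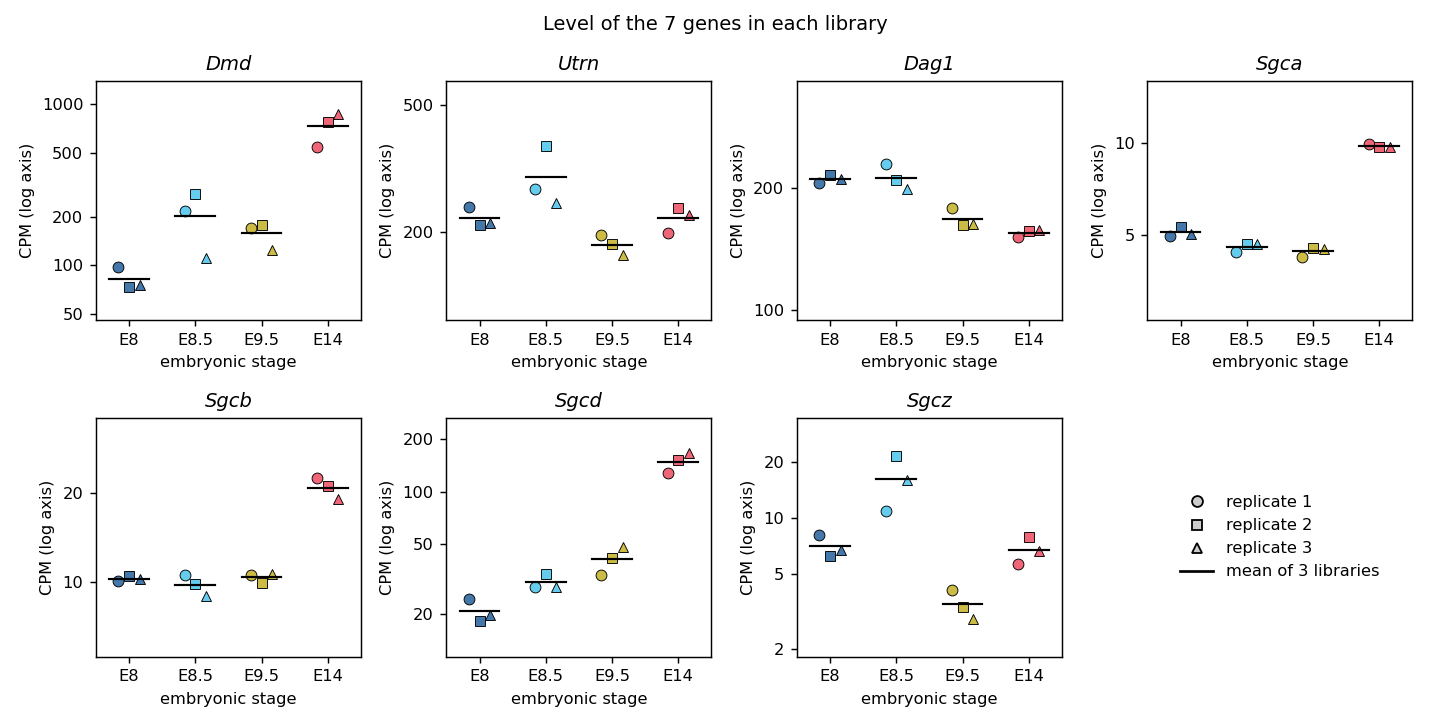
Level of each of the 7 genes in the 12 libraries, in CPM on a log axis, by embryonic stage; points are libraries (shape gives the replicate number) and bars are means of 3. Dmd, Sgca, Sgcb and Sgcd were highest in the 3 E14 libraries, and Sgcz was highest at E8.5 (10.9 to 21.5 CPM) and lowest at E9.5 (2.90 to 4.15 CPM).

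Dystrophin had the largest rise of the members as counted. Dmd was at 97.1, 73.4 and 75.8 CPM in the E8 libraries, 216, 277 and 111 CPM at E8.5, 171, 179 and 124 CPM at E9.5, and 539, 777 and 866 CPM at E14. The E14 libraries lay above all others, those of E8 below all others, and those of E8.5 and E9.5 overlapped. Dmd rose 4.60-fold at E14 over E9.5 (2.2 ± 0.31, edgeR adjusted p = 0.000118) and 8.86-fold at E14 over E8 (3.15 ± 0.32, edgeR adjusted p = 6.39e-06). All 3 E8.5 libraries exceeded all 3 at E8, but the difference missed the threshold (1.29 ± 0.30, edgeR adjusted p = 0.0516), and E9.5 over E8.5 was -0.35 ± 0.29 (edgeR adjusted p = 0.376). Without E8.5 replicate 3, which had the lowest Dmd level of its stage, both were called: 1.55 ± 0.22 for E8.5 over E8 (edgeR adjusted p = 0.00137) and -0.61 ± 0.22 for E9.5 over E8.5 (edgeR adjusted p = 0.0443), in fits that called 29.9% and 43.9% of 29662 genes in either direction.

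Utrophin moved in another way. Utrn was at 239, 211 and 214 CPM at E8, 273, 371 and 247 CPM at E8.5, 196, 183 and 169.5 CPM at E9.5, and 198, 237 and 226 CPM at E14. The E8.5 libraries were the highest and the E9.5 libraries the lowest, while E14 and E8 overlapped. Utrn fell at E9.5 over E8.5 (-0.70 ± 0.14, edgeR adjusted p = 0.00253). E14 over E8 was -0.00 ± 0.14 (edgeR adjusted p = 0.980). The E14 libraries all lay above those of E9.5, at 0.27 ± 0.14 (edgeR adjusted p = 0.119), and this was called in the fit without E8.5 replicate 2 (0.27 ± 0.09, edgeR adjusted p = 0.0283). E8.5 over E8 was 0.42 ± 0.14 (edgeR adjusted p = 0.0839) with all libraries and 0.51 ± 0.12 (edgeR adjusted p = 0.0107) without E8.5 replicate 3.

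The balance of the homologues was read within each library as the log2 ratio of Dmd to Utrn counts. It was -1.30, -1.52 and -1.49 in the E8 libraries, -0.34, -0.42 and -1.16 in those of E8.5, -0.19, -0.03 and -0.45 in those of E9.5, and 1.44, 1.71 and 1.94 in those of E14. Utrn counts exceeded those of Dmd in all 9 libraries up to E9.5, and Dmd counts exceeded those of Utrn in the 3 at E14. The geometric mean ratio was 0.369 (E8), 0.641 (E8.5, or 0.767 in replicates 1 and 2), 0.856 (E9.5) and 3.24 (E14). Stages differed by an exact permutation test over 369600 assignments of the 12 libraries (p = 0.000195, adjusted over 3 ratios 0.000292). With levels adjusted for gene span, described with the long genes, the means were -1.25, -0.61, -0.11 and 1.37. These are ratios of counts over whole intervals of unequal length, so they do not give the ratio of transcripts.

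**Figure D2:**
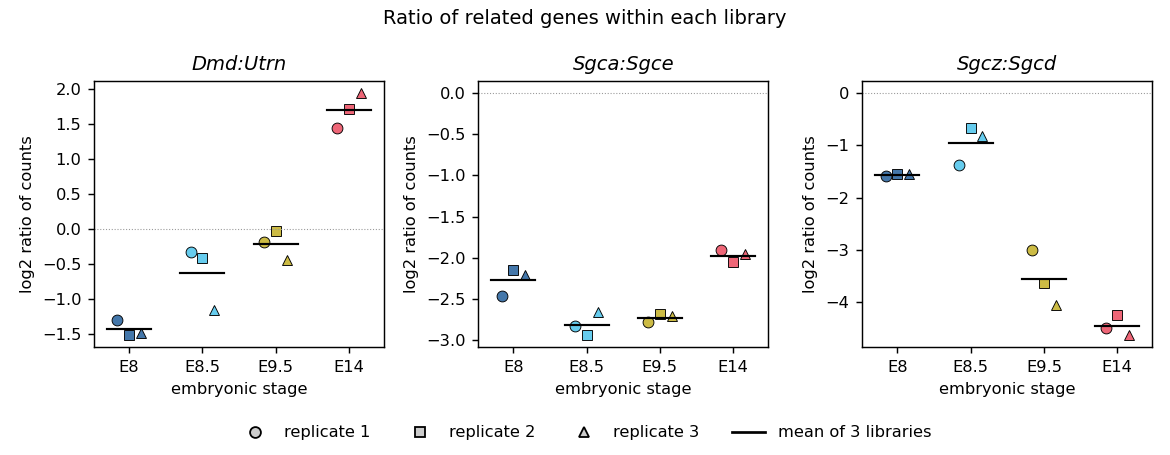
Log2 ratio of counts within each library for Dmd to Utrn, Sgca to Sgce and Sgcz to Sgcd, by stage; points are libraries, bars are means of 3 and the dotted line marks equal counts. Dmd to Utrn crossed that line at E14 (1.44 to 1.94), and Sgcz to Sgcd dropped below -3 from E9.5 on.

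Dystroglycan, the laminin receptor of the complex, was among the steadier members. Dag1 was at 205, 214 and 210.4 CPM at E8, 228, 208 and 198 CPM at E8.5, 178, 162 and 162 CPM at E9.5, and 151, 156 and 157 CPM at E14. E8 and E8.5 overlapped, the E9.5 libraries lay below both, and those of E14 below these. Dag1 fell at E9.5 over E8.5 (-0.34 ± 0.07, edgeR adjusted p = 0.00463, or -0.31 ± 0.11 and 0.0691 with both stages fitted alone) and at E14 over E8 (-0.44 ± 0.07, edgeR adjusted p = 0.000274). E14 over E9.5 was -0.11 ± 0.07 (edgeR adjusted p = 0.234), and E8.5 over E8 was 0.01 ± 0.07 (edgeR adjusted p = 0.940). At E14 the summed cardiomyocyte markers were above those of E9.5 in all libraries while Dag1 was lower in all, and the part of cell mix in this was not tested.

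The sarcoglycans Sgca and Sgcb, with short intervals, rose at E14 and were not called between earlier stages. Sgca, alpha-sarcoglycan, was at 4.98, 5.33 and 5.06 CPM at E8, 4.42, 4.70 and 4.67 CPM at E8.5, 4.25, 4.55 and 4.51 CPM at E9.5, and 9.89, 9.65 and 9.70 CPM at E14. The E14 libraries differed from each other by less than 0.3 CPM and lay above all 9 earlier ones. Sgca rose 2.2-fold at E14 over E9.5 (1.13 ± 0.08, edgeR adjusted p = 4.63e-07) and 1.90-fold over E8 (0.93 ± 0.08, edgeR adjusted p = 1.11e-06). Sgcb, beta-sarcoglycan, was at 10.1, 10.5 and 10.3 CPM at E8, 10.6, 9.87 and 8.95 CPM at E8.5, 10.6, 9.95 and 10.7 CPM at E9.5, and 22.4, 21 and 19.1 CPM at E14. The earlier stages overlapped and E14 stood above them. Sgcb rose 2.0-fold at E14 over E9.5 (1.0 ± 0.08, edgeR adjusted p = 1.61e-06) and 2.03-fold over E8 (1.02 ± 0.08, edgeR adjusted p = 7.39e-07). Neither gene was called in either earlier comparison, where their log2 fold changes ran from -0.16 to 0.08.

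The delta member of the tetramer, Sgcd, had a higher mean at each later stage and rose at E14. It was at 24.5, 18.2 and 19.8 CPM at E8, 28.3, 34.0 and 28.5 CPM at E8.5, 33.3, 42.0 and 48.2 CPM at E9.5, and 128, 151 and 165 CPM at E14. E14 lay above all other libraries, and E9.5 overlapped E8.5 by 1 library. Sgcd rose 3.59-fold at E14 over E9.5 (1.85 ± 0.16, edgeR adjusted p = 1.81e-06) and 7.10-fold over E8 (2.83 ± 0.16, edgeR adjusted p = 4.65e-08). E8.5 over E8 was 0.54 ± 0.15 (edgeR adjusted p = 0.0664), and 0.55 ± 0.17 (edgeR adjusted p = 0.0301) without E8.5 replicate 3. The rise at E9.5 over E8.5 (0.44 ± 0.15, edgeR adjusted p = 0.0380) lost its call without E8 replicate 3, E8.5 replicate 1, E8.5 replicate 3, E9.5 replicate 2 or E9.5 replicate 3 (0.32 to 0.44, edgeR adjusted p = 0.0511 to 0.161).

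Zeta-sarcoglycan, a close relative of the delta form, was highest at E8.5 and lowest at E9.5, as Utrn was. Sgcz was at 8.12, 6.26 and 6.77 CPM at E8, 10.9, 21.5 and 16 CPM at E8.5, 4.15, 3.36 and 2.90 CPM at E9.5, and 5.66, 7.93 and 6.63 CPM at E14. All E8.5 libraries were above, and all E9.5 libraries below, every other library, and E14 overlapped E8. Sgcz fell to 3.47 ± 0.63 CPM at E9.5, against 16.1 ± 5.3 CPM at E8.5 (SD, n = 3 each; -2.22 ± 0.24, edgeR adjusted p = 0.000101), and rose at E14 over E9.5 (0.96 ± 0.23, edgeR adjusted p = 0.00468). E14 over E8 was -0.06 ± 0.23 (edgeR adjusted p = 0.835). The rise at E8.5 over E8 (1.2 ± 0.22, edgeR adjusted p = 0.0454) was kept without E8.5 replicate 1, E8.5 replicate 3 or E9.5 replicate 1. It was lost without any 1 of the other 9 libraries (0.93 to 1.31, edgeR adjusted p = 0.0537 to 0.217). Summed neural tube and crest markers were 6.61 to 12.1 CPM at E9.5 and 5.28 to 8.30 CPM at E8.5, and smooth muscle and pericyte markers were 2122 to 2404 CPM at E9.5 and 1761 to 2042 CPM at E8.5. Members of both lists moved either way at this step. Sox2 (0.099 CPM at E9.5, 0.678 CPM at E8.5), Pax6 (0.688 and 1.76 CPM), Myh11 (12.2 and 22.6 CPM) and Rgs5 (11.3 and 15.7 CPM) fell, Tubb3 (6.38 and 1.43 CPM) and Acta2 (1771 and 1416 CPM) rose, and the part of these cells in the Sgcz values was not tested.

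Within each library the log2 ratio of Sgcz to Sgcd counts, which have intervals of nearly equal length, was -1.59 to -1.54 (E8), -1.38 to -0.66 (E8.5), -4.05 to -3.0 (E9.5) and -4.63 to -4.25 (E14). There was about 1 Sgcz count for 3 of Sgcd at E8 (geometric mean ratio 0.339), more at E8.5 (0.516), and far fewer at E9.5 (0.0845) and E14 (0.0454). No 2 stages overlapped. Stages differed by the exact permutation test (p = 6.49e-05, the smallest it can give, adjusted over 3 ratios 0.000195), and the span-adjusted means (-1.55, -0.95, -3.56 and -4.47) were within 0.01 of those from counts. Annotated exons differ in length (3.03 kb for Sgcz, 8.26 kb for Sgcd), so the ratio of transcripts is not given. Per kb of exon, mean Sgcz and Sgcd were at 2.33 and 2.52 CPM (E8) and 5.34 and 3.66 CPM (E8.5). At E9.5 they were at 1.15 and 4.98 CPM, and at E14 at 2.23 and 17.9 CPM.

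Long genes as a class moved between stages, which bears on Dmd, Sgcd and Sgcz and, less, on Utrn. The 57 tested coding genes of at least 1000 kb had a median log2 fold change of 0.54 for E8.5 over E8, -0.37 for E9.5 over E8.5, 0.95 for E14 over E9.5 and 1.17 for E14 over E8. At Dmd's length a smooth curve of each library's deviation lay at -0.63 to -0.24 on the log2 scale (E8), -0.08 to 0.53 (E8.5), -0.42 to -0.35 (E9.5) and 0.42 to 0.87 (E14). At Sgca's length it stayed between -0.12 and 0.07. Within this class Dmd was exceeded by 0 genes for E8.5 over E8, 26 for E9.5 over E8.5, 9 for E14 over E9.5 and 5 for E14 over E8. Sgcd was exceeded by 28, 2, 18 and 6 of them. Sgcz was exceeded by 3, all 56 others, 27 and 44, so its drop at E9.5 was the largest of the class, and its E14 over E9.5 value was near the class median.

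**Figure D3:**
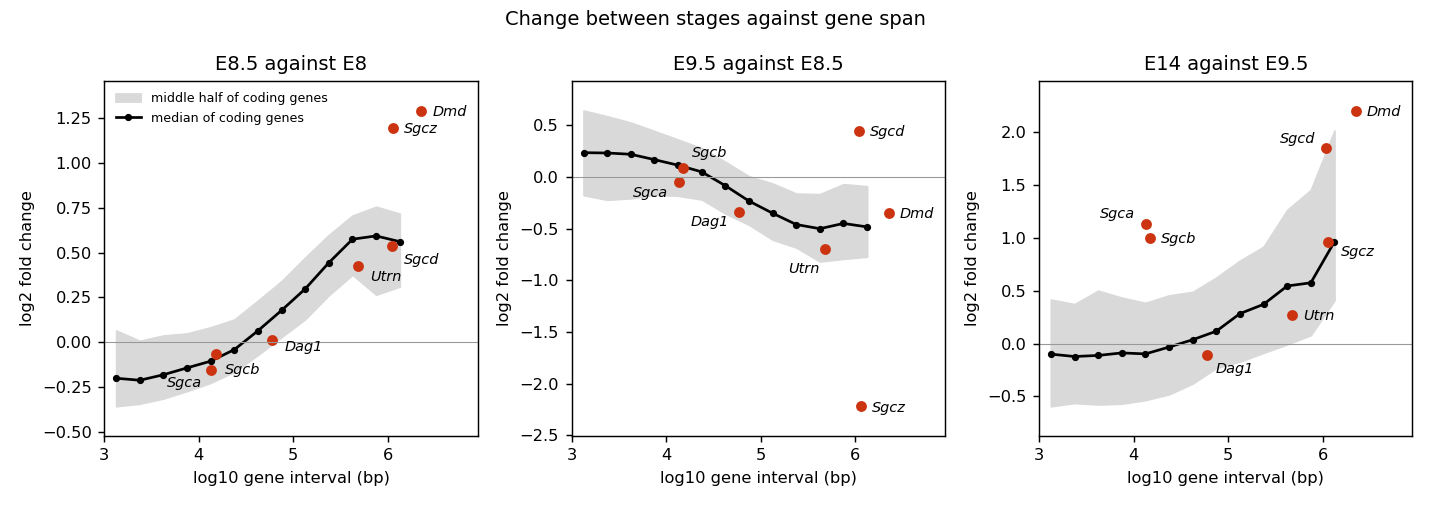
Log2 fold change against log10 gene interval length (bp) for 3 comparisons of neighbouring stages; the line is the median and the grey band the middle 50% of tested coding genes in length bins, and red points are the 7 members. Longer genes were on the whole higher at E8.5 over E8 and at E14 over E9.5 and lower at E9.5 over E8.5, and Sgca and Sgcb sat well above genes of their length at E14 over E9.5.

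When this curve was added to each library's offsets (span-adjusted), Dmd still rose at E14, by 1.12 ± 0.19 over E9.5 (edgeR adjusted p = 0.000454) and 1.97 ± 0.20 over E8 (edgeR adjusted p = 4.45e-06). Sgcd rose by 0.98 ± 0.13 (edgeR adjusted p = 6.61e-05) and 1.91 ± 0.14 (edgeR adjusted p = 2.26e-07), and at E9.5 over E8.5 by 0.96 ± 0.13 (edgeR adjusted p = 0.000331). Sgca (1.18 and 0.92) and Sgcb (1.04 and 1.01) kept nearly the same values over E9.5 and E8. Relative to genes of like length Dmd, Sgcd, Sgca and Sgcb therefore had closer values at E14 over E9.5, 0.98 to 1.18, than as counted, 1.0 to 2.2. Sgcz, also called higher at that step as counted (0.96), was at 0.09 when adjusted. Over E8 the adjusted values stayed apart, at 1.97 and 1.91 for Dmd and Sgcd and 0.92 and 1.01 for Sgca and Sgcb. Once adjusted, coding genes of at least 1000 kb had medians of -0.06 (E8.5 over E8) and 0.17 (E9.5 over E8.5). Their medians at E14 were 0.03 over E9.5 and 0.10 over E8. The adjusted values of Dmd, Sgcd and Sgcz therefore keep a class-wide part, largest at E9.5 over E8.5.

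After the adjustment 1 member was higher and 3 lower at E9.5 over E8.5, beside 17.4% of all tested genes higher and 17.4% lower. At E14 over E9.5, 4 were higher and 2 lower, beside 25% and 26.5%, and at E14 over E8, 4 were higher and 3 lower, beside 30.6% and 32.4%. Sgcz at E9.5 over E8.5 remained lower (-1.69 ± 0.16, edgeR adjusted p = 3.73e-05), but its rise at E14 over E9.5 was no longer called (0.09 ± 0.16, edgeR adjusted p = 0.685) and it was called lower at E14 over E8 (-1.01 ± 0.16, edgeR adjusted p = 0.000152). Utrn, uncalled as counted, was called lower at E14 over E9.5 (-0.35 ± 0.06, edgeR adjusted p = 0.000361) and over E8 (-0.67 ± 0.06, edgeR adjusted p = 1.36e-06), and Dag1 lower at E14 over E9.5 (-0.26 ± 0.07, edgeR adjusted p = 0.00760). For E8.5 over E8 Sgcz lost its call (0.60 ± 0.16, edgeR adjusted p = 0.0706), and Dmd was at 0.61 ± 0.19 (edgeR adjusted p = 0.0993). Of all genes called in that comparison 75.4% were higher as counted and 47.4% after the adjustment (108 higher, 0.374% of those tested, and 120 lower, 0.416%), and 54.2% by DESeq2. Whether the class-wide movement comes from the tissue or from how libraries were made was not tested.

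**Figure D4:**
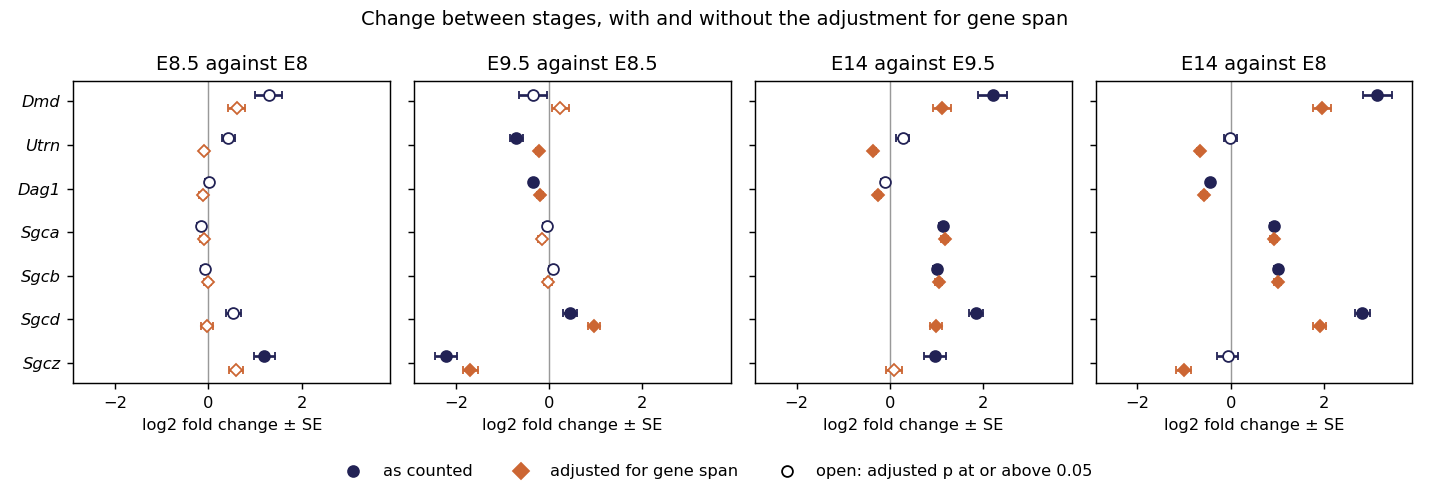
Log2 fold change (± SE) of the 7 members in 4 comparisons, as counted (circles) and adjusted for gene span (diamonds); open symbols mark an adjusted p at or above 0.05. Dmd at E14 over E9.5 is at 2.2 as counted and 1.12 adjusted, while Sgca and Sgcb barely move.

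Levels between members were compared only per length, and the order depended on which length was used. The counted intervals contain introns, and the sources used here do not say whether intronic reads were counted. Per kb of annotated exon at E14, Dmd was at 30.6 ± 7.1 CPM, Dag1 24.4 ± 0.5, Sgcd 17.9 ± 2.2, Utrn 12.9 ± 1.2, Sgca 5.62 ± 0.07, Sgcb 5.14 ± 0.42 and Sgcz 2.23 ± 0.38 CPM per kb (SD, n = 3 each). The E14 libraries of Dmd (22.6 to 36.4 CPM per kb of exon) overlapped those of Dag1 (23.8 to 24.7), and no other neighbours in this order overlapped. At E8 the order per kb of exon was Dag1 (33.0 ± 0.7), Utrn (12.9 ± 0.9), Dmd (3.45 ± 0.55), Sgca (2.95 ± 0.11), Sgcb (2.54 ± 0.04), Sgcd (2.52 ± 0.40) and Sgcz (2.33 ± 0.32 CPM per kb). Sgcd overlapped Sgca, Sgcb and Sgcz at E8, Sgcb overlapped Sgcz, and the lowest Dmd library (3.08) lay just above the highest of Sgca (3.07).

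Per kb of the whole interval at E14 the order was Dag1 (2.61 ± 0.05 CPM per kb), Sgcb (1.39 ± 0.11), Sgca (0.720 ± 0.009), Utrn (0.460 ± 0.042), Dmd (0.322 ± 0.075), Sgcd (0.135 ± 0.017) and Sgcz (0.00592 ± 0.00100). Dmd and Sgcd thus stood above Sgca and Sgcb on the exon scale and below them on the interval scale. Sgcz was lowest at E14 on both scales.

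Small genes nested inside Dmd give another reading of its locus. Of 5 such intervals the testis gene Tsga8, on the opposite strand, had 3, 2 and 4 counts in the E8 libraries, 12, 10 and 4 at E8.5, 10, 22 and 10 at E9.5, and 45, 117 and 97 at E14. These counts, like those of Dmd, were highest at E14. Together the 5 held 8 to 11 counts (E8), 15 to 30 (E8.5), 28 to 67 (E9.5) and 78 to 332 (E14). Of the 332 in E14 replicate 3, 113 were from n-R5s9, annotated as rRNA. All 5 lie upstream of the downstream RefSeq start. Inside Sgcd, on the other strand, the pseudogene Gm12176 ran the other way, with 80 to 87 counts (E8), 60 to 102 (E8.5), 7 to 9 (E9.5) and 4 to 8 (E14).

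Sgce and Sspn, of the sarcoglycan group, also changed at E14. Sgce, epsilon-sarcoglycan, which can stand in for the alpha form, rose by 0.38 ± 0.09 over E9.5 (edgeR adjusted p = 0.00304) and 0.62 ± 0.09 over E8 (edgeR adjusted p = 5.79e-05). Sspn, sarcospan, a tetraspanin-like partner of the sarcoglycans, was at 111, 152 and 148 CPM at E8, 61.0, 56.2 and 94.2 CPM at E8.5, 11.2, 17.2 and 18.2 CPM at E9.5, and 81.5, 74.6 and 78.2 CPM at E14. No E9.5 library came near those of other stages. It fell at E9.5 over E8.5 (-2.18 ± 0.22, edgeR adjusted p = 9.34e-05), rose at E14 over E9.5 (2.33 ± 0.23, edgeR adjusted p = 6.82e-06) and was lower at E14 over E8 (-0.81 ± 0.21, edgeR adjusted p = 0.00623).

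The log2 ratio of Sgca to Sgce counts was -2.46 to -2.15 (E8), -2.94 to -2.66 (E8.5), -2.78 to -2.69 (E9.5) and -2.05 to -1.91 (E14). E14 lay above every other stage, and Sgce counts exceeded those of Sgca in all 12 libraries. Stages differed by the exact permutation test (p = 0.000325, adjusted over 3 ratios 0.000325), and the ratio at E8 was also above E8.5 and E9.5 in all libraries. The interval of Sgce is longer (72.9 kb), so these counts do not give the ratio of transcripts. Per kb of annotated exon, mean Sgca exceeded mean Sgce at E8 (2.95 and 2.34 CPM) and E14 (5.62 and 3.61 CPM). Mean Sgca was below mean Sgce at E8.5 (2.65 and 3.06 CPM) and E9.5 (2.56 and 2.78 CPM).

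The cytoplasmic partners of dystrophin, the dystrobrevins and syntrophins, mostly rose by E14: 5 of 7 were higher and 1 lower at E14 over E9.5 (median 0.94) and at E14 over E8 (median 1.11), beside 25.4% and 31.5% of all tested genes called higher. Span-adjusted, 4 were higher and 2 lower in both. The gamma-syntrophin Sntg2 (1.71 ± 0.16, edgeR adjusted p = 4.05e-06), alpha-dystrobrevin Dtna (1.32 ± 0.21, edgeR adjusted p = 0.000274) and Sntg1 (1.15 ± 0.09, edgeR adjusted p = 1.27e-06) rose most at E14 over E9.5. Sntg1 lost its call when span-adjusted (0.36 ± 0.18, edgeR adjusted p = 0.123), and intervals overlapping it held 0.372 times its counts. Beta-dystrobrevin Dtnb peaked at E8.5 (34.6 ± 7.4 CPM, SD, n = 3), higher than at E8 (0.64 ± 0.14, edgeR adjusted p = 0.0492) and lower again at E9.5 (-0.58 ± 0.14, edgeR adjusted p = 0.00666). Its E8.5 libraries were at 35.3, 41.7 and 26.9 CPM. The call at E8.5 over E8 was lost in 11 of 12 fits with a library left out (edgeR adjusted p up to 0.217). It was kept without E8.5 replicate 3. Span-adjusted, the call at E8.5 over E8 was lost (0.26 ± 0.07, edgeR adjusted p = 0.0711) and Dtnb was lower at E14 over E9.5 (-0.46 ± 0.07, edgeR adjusted p = 0.000125).

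**Figure D5:**
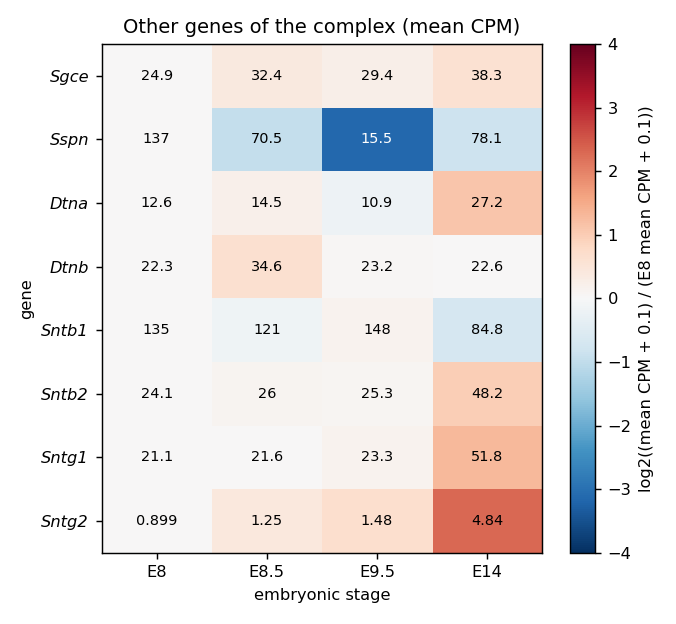
Mean CPM (numbers) of Sgce, sarcospan (Sspn), dystrobrevins and syntrophins at each stage, coloured by the log2 ratio to their E8 mean with 0.1 CPM added. Sntg2 and Dtna are above their E8 means at E14 (4.84 and 27.2 CPM), and Sspn is lowest at E9.5 (15.5 CPM).

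Of 14 membrane and signalling partners, 6 rose and 2 fell at E14 over E9.5, and 5 rose and 6 fell at E9.5 over E8.5, so the list had no shared direction (medians 0.10 and -0.22). Span-adjusted, 6 rose and 6 fell at E14 over E9.5 and 5 rose and 5 fell at E9.5 over E8.5. The shares of all tested genes at these steps, as counted, were 25.4% higher and 24.6% lower, and 18.4% and 18.5%. Cav3, the muscle caveolin, was at 1.21 ± 0.22 CPM (E8), 1.09 ± 0.35 CPM (E8.5), 6.83 ± 3.25 CPM (E9.5) and 47.4 ± 2.4 CPM (E14) (SD, n = 3 each). It rose by 2.65 ± 0.35 at E9.5 over E8.5 (edgeR adjusted p = 0.000398) and 2.79 ± 0.33 at E14 over E9.5 (edgeR adjusted p = 4.02e-05). Cav1, the caveolin of endothelium and other cells, rose at the same steps by 2.43 ± 0.32 (edgeR adjusted p = 0.000340) and 3.8 ± 0.32 (edgeR adjusted p = 3.21e-06), with Gm15581 overlapping it at 1.10 times its counts and summed endothelium markers at 778 to 810 CPM at E14, against 439.5 to 489 CPM at E9.5; the part of these cells was not tested. Kcnj11, a pore subunit of the ATP-sensitive potassium channel, rose at these steps by 0.87 ± 0.14 (edgeR adjusted p = 0.000773) and 1.24 ± 0.14 (edgeR adjusted p = 1.46e-05). The ankyrins, which anchor membrane proteins, split: Ank2 rose by 1.10 ± 0.15 at E14 over E9.5 (edgeR adjusted p = 7.25e-05) and Ank3 fell by 1.01 ± 0.21 (edgeR adjusted p = 0.00174). Their intervals span 578 kb and 494 kb. Span-adjusted, Ank2 was at 0.42 ± 0.05 (edgeR adjusted p = 3.95e-05) and Ank3 at -1.64 ± 0.13 (edgeR adjusted p = 8.44e-07). Nos1, the neuronal nitric oxide synthase that binds syntrophin, had stage means of 0.361 to 0.589 CPM and was not called as counted, but was called lower when span-adjusted (-0.90 ± 0.32, edgeR adjusted p = 0.0340, at E14 over E9.5 and -0.80 ± 0.32, edgeR adjusted p = 0.0447, at E14 over E8).

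The enzymes that build the laminin-binding sugar of dystroglycan were called in either direction about as often as all tested genes. Of 21 names 16 were in the table. Of all tested genes 25.4% were called higher and 24.6% lower at E14 over E9.5, and 18.4% and 18.5% at E9.5 over E8.5. Beside these shares, 5 of the 16 rose, 2 fell and 9 were not called at E14 over E9.5 (median 0.16). At E9.5 over E8.5, 5 rose and 11 were not called (median 0.14). Span-adjusted, 6 rose and 2 fell, and 5 rose, at these steps. At E14 over E8, as counted, 7 rose, 2 fell and 7 were not called, beside 31.5% of all tested genes called higher and 29.2% lower. Of these enzymes Ispd, which makes the CDP-ribitol donor and spans 308 kb, rose by 0.79 ± 0.12 at E14 over E9.5 (edgeR adjusted p = 0.000175). Span-adjusted, Ispd rose by 0.28 ± 0.06 (edgeR adjusted p = 0.00195). Tmem5, a xylosyltransferase, rose at that step by 0.51 ± 0.09 (edgeR adjusted p = 0.000612), and span-adjusted by 0.54 ± 0.08 (edgeR adjusted p = 0.000108). Dpm3, a subunit of dolichol-phosphate mannose synthase, rose by 0.80 ± 0.15 at E9.5 over E8.5 (edgeR adjusted p = 0.00211), and Dpm2 by 0.49 ± 0.10 (edgeR adjusted p = 0.00314). B3galnt2, a galactosaminyltransferase, fell by 0.67 ± 0.07 at E14 over E8 (edgeR adjusted p = 4.19e-06), with overlapping genes at 1.52 times its counts.

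Among the extracellular ligands, laminin chains moved in opposite directions. Of the 12 ligands, 8 rose and 2 fell at E14 over E9.5 (median 0.80), beside 25.4% of all tested genes called higher and 24.6% lower. At E9.5 over E8.5, 2 rose and 8 fell (median -0.41), beside 18.4% called higher and 18.5% lower. Span-adjusted, 8 rose and 3 fell at E14 over E9.5, and 2 rose and 7 fell at E9.5 over E8.5. Lama1, the laminin alpha chain of early embryos, was at 64.0 ± 2.2 CPM (E8), 70.6 ± 27.0 CPM (E8.5), 22.1 ± 5.2 CPM (E9.5) and 1.71 ± 0.29 CPM (E14). Lama2, the alpha chain of the muscle laminin, was at 9.38 ± 0.81, 14.5 ± 2.7, 22.6 ± 0.7 and 153 ± 18 CPM at those stages (SD, n = 3 each). Lama1 fell by 3.69 ± 0.29 at E14 over E9.5 (edgeR adjusted p = 1.44e-06) and Lama2 rose by 2.76 ± 0.13 (edgeR adjusted p = 2.72e-08). Lama2 also rose at E9.5 over E8.5 (0.64 ± 0.13, edgeR adjusted p = 0.00275) and at E8.5 over E8 (0.63 ± 0.13, edgeR adjusted p = 0.0461), and it spans 640 kb. The last call was lost when span-adjusted (0.09 ± 0.08, edgeR adjusted p = 0.469). The small proteoglycan Bgn (3.29 ± 0.21, edgeR adjusted p = 2.52e-07) and the guidance ligand Slit2 (2.90 ± 0.11, edgeR adjusted p = 6.26e-09) rose beside it at E14 over E9.5, where fibroblast and epicardium markers were also higher; the part of those cells was not tested.

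Over all 52 partner genes tested, 27 rose and 7 fell at E14 over E9.5, 13 rose and 16 fell at E9.5 over E8.5, 28 rose and 14 fell at E14 over E8, and 3 rose at E8.5 over E8 (Dtnb, Lama2 and Slit2), beside the shares of all tested genes given for the members. Medians were 0.28, -0.08, 0.38 and 0.09 (log2). Span-adjusted, in the same order, 27 rose and 13 fell, 16 rose and 14 fell, and 27 rose and 16 fell. At E8.5 over E8 edgeR then called 0 (12 had an unadjusted p under 0.05), and Slit2 was at 0.16 ± 0.10 (edgeR adjusted p = 0.364). DESeq2, as counted, called 10 partner genes there, beside 4301 of 47041 genes. Without E8.5 replicate 3, 13 rose and 5 fell at E8.5 over E8, Dtnb, Lama2 and Slit2 among the risers (0.76, 0.73 and 0.51). In that fit 29.9% of all 29662 tested genes were called in either direction. That fit also called Sspn lower (-1.26 ± 0.19, edgeR adjusted p = 0.00176) and Sgce higher (0.41 ± 0.08, edgeR adjusted p = 0.00391) at E8.5 over E8.

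The genes whose profile over the 12 libraries was closest to a member, by the root-mean-square difference of centred log2 CPM among 11161 coding genes, differed from member to member. For Dmd they were Nkain2 (0.303), Fgf14 (0.307) and Gxylt2 (0.312), and for Sgcd Plce1 (0.161), Cobl (0.167) and Scube2 (0.172). For Utrn they were Ptk2 (0.0480), Fbxw7 (0.0516) and Dyrk1a (0.0524), and for Dag1 Arhgef2 (0.0513), Elmo2 (0.0569) and Slx4 (0.0613). These differences are not scaled to how much a member itself varied, so their sizes do not rank members by closeness. The SD of log2 CPM over the 12 libraries was 1.19 (Dmd), 1.08 (Sgcd), 0.813 (Sgcz), 0.461 (Sgca), 0.455 (Sgcb), 0.285 (Utrn) and 0.205 (Dag1). Closest to Sgca were Ccpg1 (0.0709), Ppip5k2 (0.0821) and Gipr (0.0824), to Sgcb Uprt (0.0842), Klhl8 (0.0857) and Rgmb (0.0886), and to Sgcz Kcnt2 (0.238), Kcnb2 (0.271) and Unc13c (0.304). No member was among the 3 closest of another. The profiles share libraries, depth and gene span: the genes closest to Sgcz span 366 to 490 kb.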

How the data were processed

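The authors deposited whole-number read counts per gene interval and library, without normalization, per the file headers. The submitters' processing notes name STAR 2.5.0, Cufflinks 2.2.1 and the builds GRCm38, mm10 and hg38 without a role. The sources used here name no counting tool, strand setting or annotation release, and without a strand setting reads of overlapping genes cannot be told apart. Depth was 56574386 to 122785175 counts per library.

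Intervals were matched to GENCODE M21 (42778 identical, 5649 by symbol, 282 unmatched), which gave exon lengths. The test was run by edgeR 4.0.16 under R 4.3.3: a filterByExpr filter, TMM factors (0.913 to 1.07), 1 mean per stage over all 12 libraries, robust quasi-likelihood F-tests and Benjamini-Hochberg adjustment over 28846 genes, with a common dispersion of 0.0362. The SE is the log2 fold change over the square root of F. Libraries within 1 stage were further apart than counting alone gives (chi-square per gene 8.41 to 201 on average). Ratios used a pseudocount of 0.5 counts and an exact permutation test of the F statistic over the 4 stages, which has no direction. The span adjustment was a loess curve (span 0.3) of log2 CPM deviation on log10 interval length, fitted per library on genes of at least 1 CPM. The scripts were tested on simulated data.

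All 7 members are described. The other genes come from 5 lists, of which Sgce and Sspn and up to 4 called genes with the largest change per list and comparison could be named. Nos1 falls outside this rule and was chosen after its values were seen. Some genes are not reported here. Cell markers were 8 lists, of which those for cardiomyocytes, skeletal muscle, smooth muscle, fibroblasts and epicardium, endothelium, visceral endoderm and neural cells are in the text, and erythroid markers summed to 540.5 to 578 CPM (E8), 697 to 1195 CPM (E8.5), 4194 to 10702 CPM (E9.5) and 10587 to 35305 CPM (E14). Members and lists were chosen with earlier results of these data known. Alternatives were RLE and upper-quartile factors, no filter or at least 1 CPM in 3 libraries, a replicate block, span-adjusted offsets, the 2 compared stages alone, DESeq2 1.42.0, other ratio pseudocounts, exon length and each library left out in turn. Tables and figures came from Python 3.11 (scipy 1.17.1, numpy 2.4.6, matplotlib 3.10.9, pandas 2.3.3).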

Additional observations from a re-analysis of the deposited data

How the results depend on the processing

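Of 560 fold changes of members recomputed, 507 kept direction and side of the threshold, 22 lost a call, 13 gained one and 18 turned sign; the 3 ratios kept theirs in every alternative, with E14 minus E8 at 3.02 to 3.26 (Dmd to Utrn), 0.21 to 0.36 (Sgca to Sgce) and -3.01 to -2.81 (Sgcz to Sgcd) as libraries were left out. For E8.5 over E8, 341 genes and 1 member were called; the numbers were 190 genes without a filter, 1564 and 2 members with at least 1 CPM in 3 libraries, 3 and 0 with a replicate block, 0 members with span-adjusted offsets, 9 and 0 with both stages alone, 4301 and 4 by DESeq2, and 0 to 8865 genes and 0 to 4 members with a library left out (8865 and 4 without E8.5 replicate 3; 0 by edgeR without E8 replicate 3, where 5398 had an unadjusted p under 0.05). For E9.5 over E8.5, 10659 genes and 4 members were called, 6099 and 2 with both stages alone and 7044 to 13015 and 3 to 4 with a library left out. Ranges for E14 over E9.5 were 12346 to 16285 genes and 5 to 6 members, and for E14 over E8 15649 to 19174 and 5. Span adjustment turned the sign of Utrn (-0.084), Dag1 (-0.12) and Sgcd (-0.030) at E8.5 over E8, of Dmd (0.24) and Sgcb (-0.020) at E9.5 over E8.5 and of Utrn at E14 over E9.5 (-0.35). At E9.5 over E8.5 the adjusted median of coding genes of at least 1000 kb was 0.17. Dag1 at E8.5 over E8, 0.01, was -0.0071 with RLE factors, -0.0090 without a filter, -0.010 by DESeq2 and -0.048 to 0.024 with a library left out. Utrn and Sgcz at E14 over E8 were -0.092 to 0.049 and -0.23 to 0.047 with a library left out. The causes were not tested beyond what each alternative changes. Same-numbered replicates did not as a group deviate together (18 pairs, r = -0.56 to 0.49, 5 over 0.1). Of 36 pairs with other numbers 17 were over 0.1 (r = -0.61 to 0.68). The deviations are centred on 3 libraries per stage, so this check cannot tell whether the numbers mark a pairing. Both stages alone took the calls of Dag1 and Sgcd (0.47, edgeR adjusted p = 0.0580) at E9.5 over E8.5. Beside the counts above, the block took the calls of Sgcz at E8.5 over E8 and Sgcd at E9.5 over E8.5. Exon length in place of interval length moved all levels per kb, as given. Sgcz (254 to 2325 counts per library) and Sgca (324 to 893) have the least depth. Of the 52 partner genes 3 were called at E8.5 over E8, 10 by DESeq2, 0 with span-adjusted offsets and 0 to 18 with a library left out (18 without E8.5 replicate 3), and 22 to 37, 32 to 38 and 38 to 42 at E9.5 over E8.5, E14 over E9.5 and E14 over E8 (chosen after seeing the data).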
